A study of Mus musculus with 12 samples.

Results

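The genes for voltage-gated sodium, calcium and HCN channels were followed in primary mouse cortical neurons in the days after plating, with and without erinacine S. The members were chosen by symbol alone, with no measured value: protein-coding genes named Scn with a number and an a or b (sodium channel alpha and beta subunits), Cacna1, Cacna2d or Cacnb with a letter or number (calcium channel alpha1, alpha2delta and beta subunits), or Hcn with a number (hyperpolarization-activated channels). This gave 36 of the 51912 genes in the table, 22025 of which are protein-coding. They are 10 sodium channel alpha genes, 4 sodium channel beta genes, 10 calcium channel alpha1 genes, 4 alpha2delta genes, 4 calcium channel beta genes and 4 HCN genes.

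The cells were dissociated from the cortex of C57BL/6J mouse embryos (E17.5) and passed through a strainer, and the labels describe no sort for neurons. The 12 libraries fall into 4 groups of 3. Neurons were kept for 48 h with 1 µg/mL erinacine S, for 48 h with DMSO, the solvent control, for 16 h with 1 µg/mL erinacine S, or for 16 h with DMSO. Erinacine S, made by the mycelium of the lion's mane mushroom Hericium erinaceus, was added on the day of plating, so 48 h against 16 h is also a comparison of time in culture. The 3 libraries of a group are labelled independent repeats, with nothing on litters, dishes or days, so p-values reflect the spread among libraries, and that spread may be technical.

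Sodium channel alpha subunits form the pore that opens on depolarization and drives the rising phase of the action potential, and beta subunits modulate the pore and act as adhesion molecules. Calcium channel alpha1 subunits turn depolarization into calcium entry: L-type channels signal to the nucleus, P/Q- and N-type channels trigger transmitter release, and T-type channels open near the resting potential and favour burst firing. The alpha2delta and calcium channel beta subunits bring the L-, P/Q- and N-type pores to the membrane. HCN channels open on hyperpolarization, bind cyclic AMP and pass the current known as Ih.

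Expression was deposited as TPM, which scales reads by gene length and to a fixed total per library, so levels can be compared between genes while sequencing depth is unknown. All 11 neuron markers examined averaged at least 1 TPM. Their summed level, most of it from Tubb3, Stmn2, Map2 and Neurod6, was 5660 to 5876 TPM with erinacine S and 5609 to 5860 TPM with DMSO at 48 h, against 4371 to 4989 TPM with erinacine S and 4241 to 4748 TPM with DMSO at 16 h. Erinacine S 48 h replicate 1 stood apart from the other libraries of that time. Its summed markers were 73.0 TPM for astrocytes (144 to 170 TPM in the other 48 h libraries), 69.0 TPM for the oligodendrocyte lineage (178 to 241 TPM), 1.24 TPM for microglia and macrophages (8.01 to 24.2 TPM) and 244 TPM for radial glia and dividing cells (461 to 517 TPM). Its neuron sum lay near the others, but single neuron markers did not. Map2, Rbfox3, Snap25, Syt1, Stmn2, Slc17a7, Slc17a6, Gad1 and Gad2 were higher there than in any other 48 h library. Tubb3 and Neurod6 were lower there than in any other. Syt1 had 229 TPM (109 to 152 TPM in the other 48 h libraries) and Tubb3 2557 TPM (2799 to 3239 TPM). Of the 10 endothelial, mural and fibroblast markers, 6 were under 1 TPM in every library, as were 6 of the 7 muscle markers. P2ry12 of microglia, S100b of astrocytes and the myelin genes Mag and Mog were also under 1 TPM throughout.

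Of the 36 channel genes, 27 averaged at least 1 TPM over the 12 libraries and were tested. These were 5 sodium channel alpha, 3 sodium channel beta, 8 calcium channel alpha1, 3 alpha2delta, 4 calcium channel beta and 4 HCN genes. The calcium channel beta gene Cacnb3 was highest at a mean of 289 TPM, followed by the sodium channel beta gene Scn3b at 98.8 TPM, Cacnb1 at 81.0 TPM and the T-type pore gene Cacna1h at 71.8 TPM. The 9 genes left out were under 1 TPM in every library. They include Scn10a and Scn11a, best known from sensory neurons, the muscle channel genes Scn4a and Cacna1s, Scn7a, Scn4b, and the retinal genes Cacna1f and Cacna2d4. Near the filter's edge, Scn9a averaged 1.05 TPM inside and Cacna2d4 0.0881 TPM outside.

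**Figure D1:**
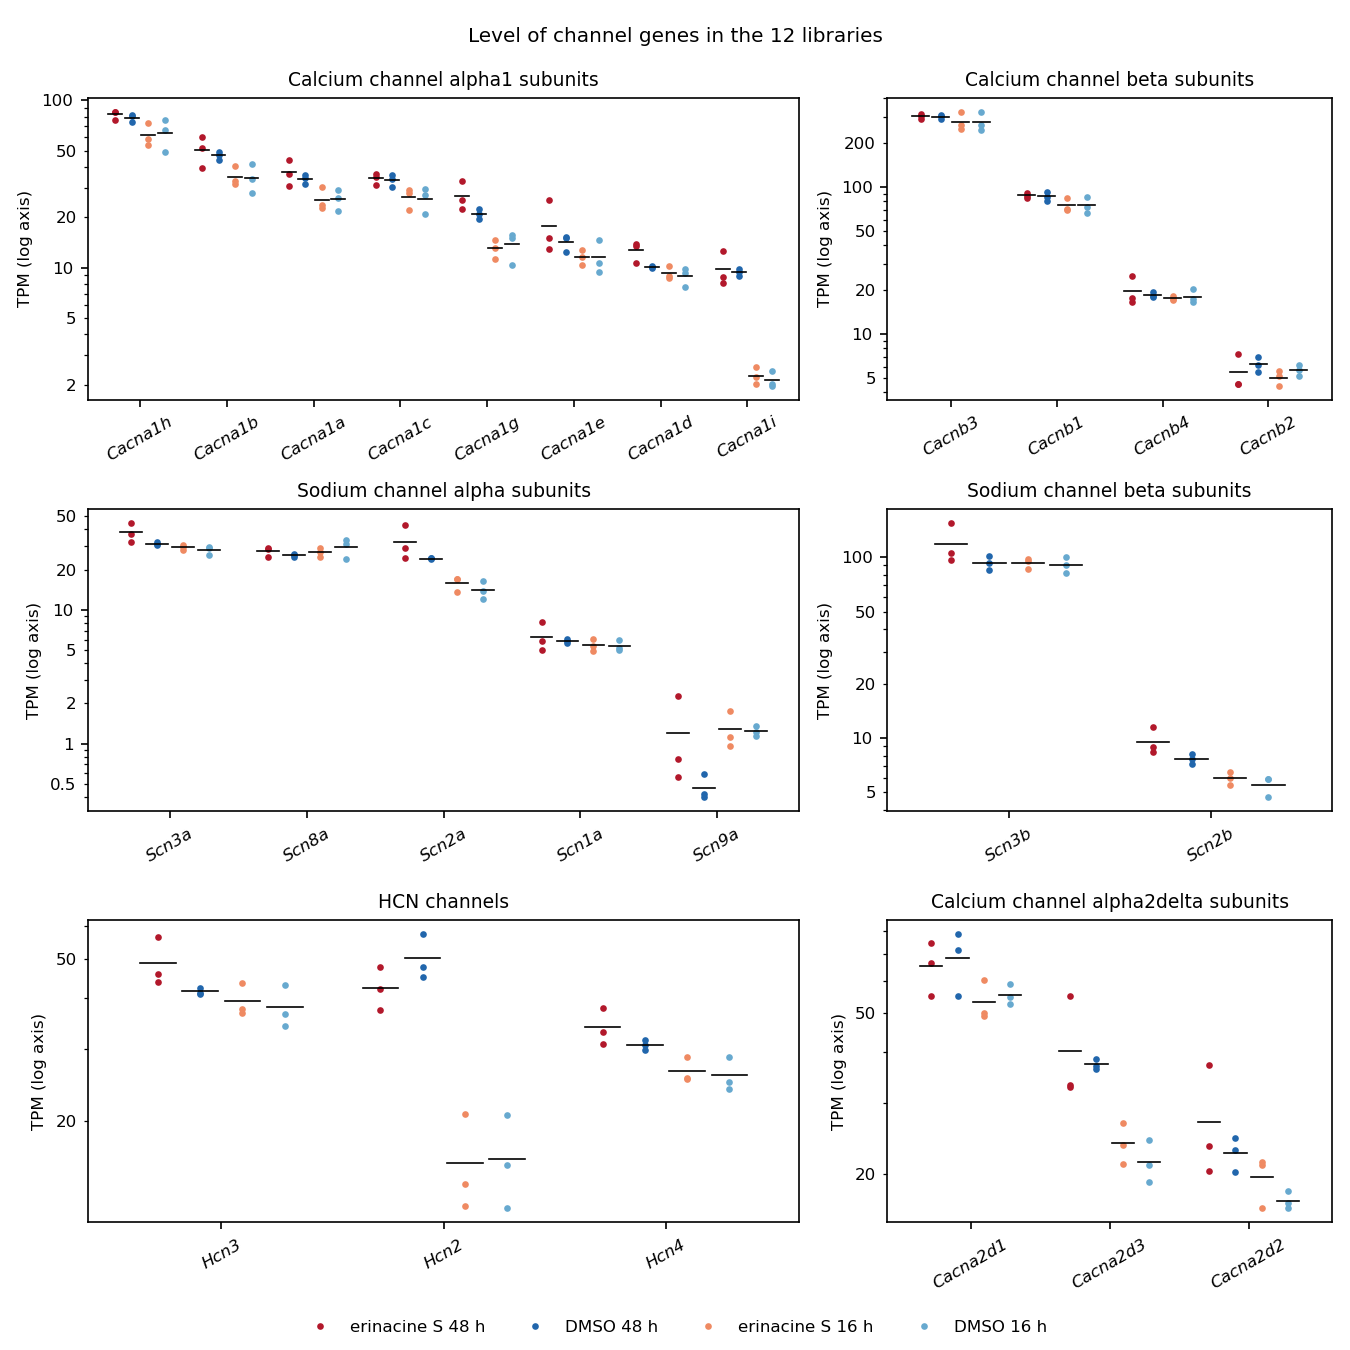
Level of most of the tested channel genes in TPM (log axis) in each library, in a panel per family; points are libraries, colours are the 4 groups, and bars are group means (n = 3). Cacnb3 lies highest and Scn9a lowest, and for Cacna1i and Hcn2 the 48 h libraries stand clear of the 16 h libraries.

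The clearest difference among these genes was between the times, and it was toward higher levels at 48 h. With DMSO, 7 of the 27 genes rose at 48 h against 16 h and 0 fell, where 16.1% of the 15623 genes tested rose and 16.6% fell (limma on log2(TPM + 1), Benjamini-Hochberg adjusted p under 0.05). With erinacine S, 13 rose and 0 fell, where 15.1% of all genes rose and 15.5% fell. The sign was positive for 25 of 27 genes with DMSO and 26 of 27 with erinacine S, with median log2 fold changes of 0.29 and 0.40, against a median of -0.03 over all genes in each. Libraries of the 2 times did not overlap, with 48 h higher, for 15 genes with DMSO (24.1% of all genes) and for 15 with erinacine S (21.2%). These are bulk cultures, in which fewer cells of a type and less RNA per cell cannot be told apart. Marker sums differed between the times as well. The neuron sum given above was higher at 48 h, where 5 of its 11 genes (Tubb3, Map2, Rbfox3, Syt1 and Stmn2) were higher in every 48 h library than in any 16 h library. Neurod6, a marker of excitatory cortical neurons, went the other way, with 472 to 596 TPM at 48 h, against 724 to 857 TPM at 16 h, and the other 5 overlapped. Astrocyte markers summed to 73.0 to 170 TPM with erinacine S and 144 to 160 TPM with DMSO at 48 h, against 82.2 to 103 TPM with erinacine S and 81.2 to 110 TPM with DMSO at 16 h. Oligodendrocyte lineage markers summed to 69.0 to 194 TPM with erinacine S and 207 to 241 TPM with DMSO at 48 h, against 65.5 to 96.6 TPM with erinacine S and 60.9 to 111 TPM with DMSO at 16 h. These glial sums were thus higher in all 48 h libraries but erinacine S replicate 1. Sums for microglia and macrophages were 1.24 to 8.95 TPM with erinacine S and 17.0 to 24.2 TPM with DMSO at 48 h, against 25.1 to 39.1 TPM with erinacine S and 21.4 to 40.7 TPM with DMSO at 16 h. Those for radial glia and dividing cells were 244 to 468 TPM with erinacine S and 479 to 517 TPM with DMSO at 48 h, against 493 to 561 TPM with erinacine S and 510 to 584 TPM with DMSO at 16 h. The part of these cell types in the rise of the channel genes was not tested.

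The 7 genes that rose with DMSO included the pore genes Scn2a, Cacna1g, Cacna1i and Hcn2 and the auxiliary genes Scn2b and Cacna2d3. All 7 rose with erinacine S as well, where they are 7 of the 13 genes called. The other 6 were Scn3a, Cacna1a, Cacna1b, Cacna1d, Cacna1h and Hcn4, and 14 genes were called in neither comparison. The 2 comparisons share no library. The difference between them, tested as the interaction of treatment and time, passed for 0 of 27 genes.

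**Figure D2:**
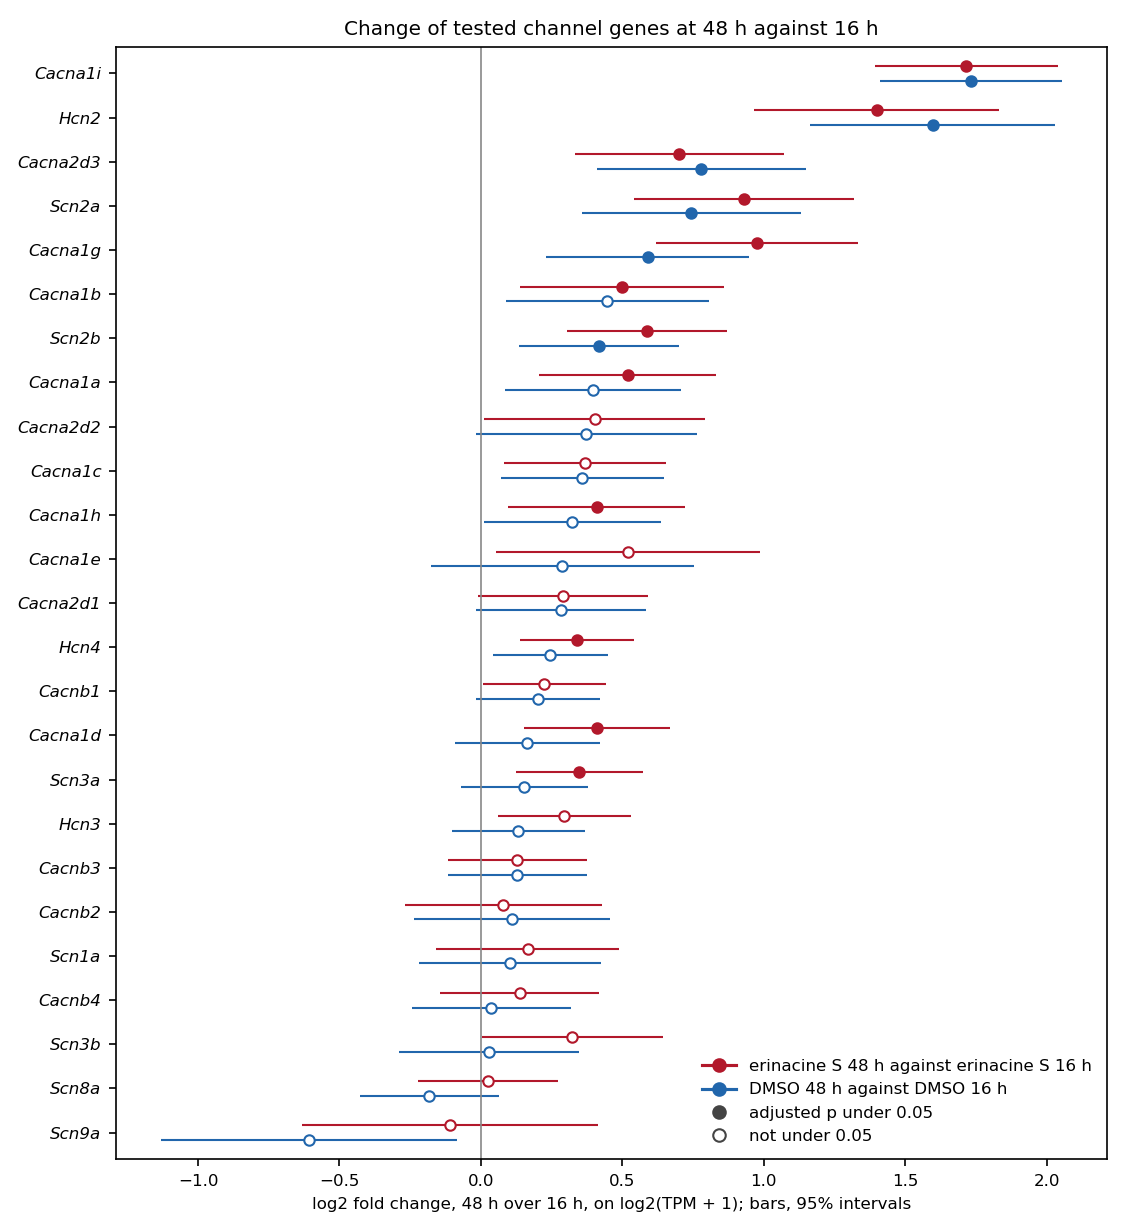
Log2 fold change of most of the tested channel genes, 48 h against 16 h, on the log2(TPM + 1) scale with its 95% confidence interval, for erinacine S and for DMSO; filled symbols mark an adjusted p under 0.05 (limma). Cacna1i and Hcn2 lie farthest to the right in both, and nearly all points are right of 0 with erinacine S and with DMSO.

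The count with erinacine S depended on single libraries. Without erinacine S 48 h replicate 1 it was 6 (Scn2a, Scn2b, Cacna1g, Cacna1i, Cacna2d3 and Hcn2), and these 6 were called without any 1 library. The count was also 6 without erinacine S 16 h replicate 2, 7 without replicate 3 of that group, and 17 without erinacine S 48 h replicate 3. With DMSO it was 5 to 10 with 1 library left out, and Scn2a, Cacna1i, Cacna2d3 and Hcn2 kept their calls in each case. Erinacine S 48 h replicate 1 was the highest of the 12 libraries for 21 of the 27 channel genes and for 23.8% of all genes. DMSO 16 h replicate 3 was the lowest for 15 of the 27 and for 17.9% of all genes.

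Among the sodium channel pores, Scn2a rose with time. This gene encodes a channel of the axon initial segment of young excitatory neurons. Scn2a had 43.2, 28.8 and 24.3 TPM with erinacine S and 23.8, 24.4 and 24.3 TPM with DMSO at 48 h, against 17.1, 13.7 and 17.1 TPM with erinacine S and 16.6, 11.98 and 13.9 TPM with DMSO at 16 h. Every 48 h library lay above every 16 h library. The log2 fold change was 0.93 ± 0.18 with erinacine S (SE, adjusted p = 0.00268, limma) and 0.74 ± 0.18 with DMSO (adjusted p = 0.00807).

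Scn3a and Scn8a had the highest mean over the 12 libraries among the sodium channel pores, and neither rose with DMSO. Scn3a, the channel known for its high level in embryonic brain, had 44.7, 36.7 and 32.4 TPM with erinacine S and 31.2, 30.7 and 32.1 TPM with DMSO at 48 h, against 27.9, 29.7 and 30.4 TPM with erinacine S and 29.2, 29.5 and 25.6 TPM with DMSO at 16 h. It rose with erinacine S (0.35 ± 0.10, SE, adjusted p = 0.0238, limma), while the value with DMSO was 0.15 ± 0.10 (adjusted p = 0.273). The call was lost without erinacine S 48 h replicate 1 (0.23, adjusted p = 0.0703), 16 h replicate 1 (adjusted p = 0.0618) or 16 h replicate 2 (adjusted p = 0.0606). Scn8a, which takes over at mature initial segments and nodes of Ranvier, had 28.6, 29.2 and 24.7 TPM with erinacine S and 25.7, 26.1 and 25.0 TPM with DMSO at 48 h, against 26.9, 25.0 and 29.1 TPM with erinacine S and 31.1, 33.3 and 24.0 TPM with DMSO at 16 h. The groups overlap, and the log2 fold changes were 0.03 ± 0.11 with erinacine S and -0.18 ± 0.11 with DMSO (SE). Without DMSO 16 h replicate 3, Scn8a was called lower with DMSO (-0.32, adjusted p = 0.0276).

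Scn1a and Scn9a were lower in level. Scn1a, a channel of inhibitory interneurons later in development, lay between 4.89 and 8.16 TPM in all libraries. Scn9a, better known from pain-sensing neurons, was the tested gene with the largest negative value. It had 2.27, 0.774 and 0.569 TPM with erinacine S and 0.423, 0.398 and 0.592 TPM with DMSO at 48 h, against 0.962, 1.12 and 1.75 TPM with erinacine S and 1.14, 1.22 and 1.35 TPM with DMSO at 16 h. All DMSO libraries of 48 h lay below those of 16 h, the single gene of the 27 with that pattern (26.4% of all genes), and the log2 fold change was -0.61 ± 0.24 (SE, adjusted p = 0.0715, limma). The erinacine S libraries overlapped (-0.11 ± 0.24), with 48 h replicate 1 the highest of all 12, and without that library the value was -0.43 (adjusted p = 0.0837).

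The makeup of the sodium channel pores differed between the times. Scn2a made up 27.8% to 33.9% of the summed TPM of the 10 alpha genes with erinacine S and 27.3% to 27.9% with DMSO at 48 h, against 18.3% to 21.6% with erinacine S and 14.7% to 19.7% with DMSO at 16 h. Scn8a took 22.4% to 28.7% with erinacine S and 28.3% to 29.9% with DMSO at 48 h, against 33.5% to 34.6% with erinacine S and 34.1% to 41.0% with DMSO at 16 h. In both treatments these shares did not overlap between the times. Scn3a held 34.7% to 39.8% in all 12 libraries.

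Of the sodium channel beta genes, Scn2b rose with time. It encodes a subunit that binds the pore through a disulfide bond. Scn2b had 11.5, 8.33 and 8.87 TPM with erinacine S and 7.20, 7.65 and 8.17 TPM with DMSO at 48 h, against 5.99, 5.48 and 6.49 TPM with erinacine S and 5.92, 4.70 and 5.92 TPM with DMSO at 16 h. All 48 h libraries lay above all 16 h libraries. Between the times the log2 fold change was 0.59 ± 0.13 with erinacine S (SE, adjusted p = 0.00578, limma) and 0.42 ± 0.13 with DMSO (adjusted p = 0.0284). The call with DMSO was lost without 48 h replicate 1, 2 or 3 (adjusted p = 0.0519, 0.0696 and 0.0937) and without 16 h replicate 2 (adjusted p = 0.0962), and its value was 0.27 with a pseudocount of 5.

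Scn3b, a subunit that is abundant in the embryonic brain, made up 82.6% to 88.3% of the summed beta genes in every library. It had 154, 105 and 96.7 TPM with erinacine S and 84.8, 92.1 and 101 TPM with DMSO at 48 h, against 94.8, 85.6 and 98.1 TPM with erinacine S and 100.1, 81.8 and 90.6 TPM with DMSO at 16 h. The times overlap in both treatments, and the log2 fold changes were 0.32 ± 0.15 with erinacine S (SE, adjusted p = 0.114, limma) and 0.03 ± 0.15 with DMSO (adjusted p = 0.898). The value with erinacine S rested on single libraries: it was 0.12 without 48 h replicate 1 (adjusted p = 0.411) and was called without 48 h replicate 3 (0.46, adjusted p = 0.0393).

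The largest rise among all 27 genes was that of Cacna1i, a T-type pore expressed mainly in the brain. Cacna1i had 12.6, 8.81 and 8.12 TPM with erinacine S and 8.88, 9.85 and 9.50 TPM with DMSO at 48 h, against 2.22, 2.01 and 2.55 TPM with erinacine S and 2.02, 2.43 and 1.97 TPM with DMSO at 16 h. The lowest 48 h library was thus at 8.12 TPM and the highest 16 h library at 2.55 TPM. Its log2 fold change was 1.72 ± 0.15 with erinacine S (SE, adjusted p = 2.26e-05, limma) and 1.73 ± 0.15 with DMSO (adjusted p = 1.74e-05). With a pseudocount of 5 in place of 1, which compresses low values, it was 1.02 with erinacine S and 1.01 with DMSO.

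The T-type gene Cacna1g rose with time too, and Cacna1h with erinacine S. Cacna1g had 32.8, 25.4 and 22.4 TPM with erinacine S and 22.5, 19.5 and 20.9 TPM with DMSO at 48 h, against 11.3, 13.2 and 14.7 TPM with erinacine S and 10.5, 15.8 and 15.1 TPM with DMSO at 16 h. The times did not overlap in either treatment, and the log2 fold change was 0.98 ± 0.16 with erinacine S (SE, adjusted p = 0.00129, limma) and 0.59 ± 0.16 with DMSO (adjusted p = 0.0171). The DMSO call was lost without 48 h replicate 1 (adjusted p = 0.0643) or 16 h replicate 1 (adjusted p = 0.0625). Cacna1h had 85.5, 85.2 and 76.5 TPM with erinacine S and 80.6, 73.9 and 81.9 TPM with DMSO at 48 h, against 73.5, 58.8 and 54.4 TPM with erinacine S and 66.3, 75.8 and 49.0 TPM with DMSO at 16 h. The erinacine S libraries separate the times and the DMSO libraries overlap. Its log2 fold change was 0.41 ± 0.14 with erinacine S (SE, adjusted p = 0.0483, limma) and 0.32 ± 0.14 with DMSO (adjusted p = 0.102). The erinacine S call was lost without any 1 library of that arm except 16 h replicate 1, with adjusted p between 0.0565 and 0.164, and with DMSO the gene was called without 16 h replicate 2 (0.46, adjusted p = 0.0311).

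Cacna1i therefore held a larger part of the T-type transcripts at 48 h, although Cacna1h dominated in every library. Cacna1i made up 7.38% to 9.64% of the 3 T-type genes with erinacine S and 7.93% to 9.54% with DMSO at 48 h, against 2.55% to 3.55% with erinacine S and 2.56% to 2.98% with DMSO at 16 h. Cacna1h took 65.3% to 71.5% with erinacine S and 71.6% to 72.9% with DMSO at 48 h, against 75.9% to 84.5% with erinacine S and 74.2% to 84.2% with DMSO at 16 h.

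Among the P/Q-, N- and R-type pores of transmitter release, Cacna1a and Cacna1b rose with erinacine S and stood just outside the threshold with DMSO. Cacna1a, the P/Q-type pore, had 43.8, 36.5 and 31.0 TPM with erinacine S and 36.0, 31.8 and 34.4 TPM with DMSO at 48 h, against 30.5, 22.6 and 23.5 TPM with erinacine S and 26.3, 29.1 and 22.0 TPM with DMSO at 16 h. The times did not overlap within either treatment. The log2 fold change was 0.52 ± 0.14 with erinacine S (SE, adjusted p = 0.0173, limma) and 0.40 ± 0.14 with DMSO (adjusted p = 0.0518, or 0.0381 without 16 h replicate 2). Without erinacine S 48 h replicate 1, 16 h replicate 2 or 16 h replicate 3 the call with erinacine S was lost (adjusted p = 0.0625, 0.0747 and 0.0626).

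Cacna1b, the N-type pore, had 60.3, 51.7 and 39.2 TPM with erinacine S and 47.3, 43.8 and 49.3 TPM with DMSO at 48 h, against 40.7, 31.6 and 32.9 TPM with erinacine S and 41.7, 34.0 and 27.8 TPM with DMSO at 16 h. The erinacine S libraries overlap and the DMSO libraries do not. Between the times the log2 fold change was 0.50 ± 0.16 with erinacine S (SE, adjusted p = 0.0380, limma) and 0.45 ± 0.16 with DMSO (adjusted p = 0.0560, or 0.0250 without 16 h replicate 1). The call with erinacine S was lost without 48 h replicate 1 or 2 (adjusted p = 0.136 and 0.0947) and without 16 h replicate 2 or 3 (adjusted p = 0.131 and 0.107). The R-type gene Cacna1e lay between 9.49 and 25.3 TPM, highest in erinacine S 48 h replicate 1, and its values of 0.52 ± 0.21 with erinacine S and 0.29 ± 0.21 with DMSO did not pass (SE, adjusted p = 0.0841 and 0.323, limma). The Cacna1e value with erinacine S was 0.25 without 48 h replicate 1 (adjusted p = 0.298), and it was called without 48 h replicate 3 (0.71, adjusted p = 0.0311).

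Of the L-type pores, Cacna1d rose with erinacine S. Cacna1d opens at lower voltages than its relative Cacna1c. It had 13.8, 13.6 and 10.7 TPM with erinacine S and 10.1, 10.3 and 9.91 TPM with DMSO at 48 h, against 10.2, 8.92 and 8.68 TPM with erinacine S and 9.86, 9.34 and 7.71 TPM with DMSO at 16 h. Each treatment's 48 h libraries lay above its 16 h libraries, by little with DMSO. Its log2 fold change was 0.41 ± 0.12 with erinacine S (SE, adjusted p = 0.0208, limma) and 0.16 ± 0.12 with DMSO (adjusted p = 0.307). The call with erinacine S was lost without 48 h replicate 1 or 2 (adjusted p = 0.0607 and 0.0720) and without 16 h replicate 2 or 3 (adjusted p = 0.0713 and 0.0735). Cacna1c, the main L-type pore of neurons and heart, made up 71.4% to 77.6% of the L-type genes in all libraries. It ranged between 21.0 and 36.3 TPM, and its values of 0.37 ± 0.13 with erinacine S and 0.36 ± 0.13 with DMSO were just short of the threshold (SE, adjusted p = 0.0525 and 0.0551, limma). Without replicate 1 of the 16 h group it was called with erinacine S (adjusted p = 0.0415) and with DMSO (adjusted p = 0.0330).

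Of the alpha2delta genes, which encode extracellular subunits, Cacna2d3 rose with time. Cacna2d3 had 55.1, 32.9 and 33.2 TPM with erinacine S and 37.1, 38.6 and 36.3 TPM with DMSO at 48 h, against 26.8, 21.2 and 23.5 TPM with erinacine S and 24.3, 19.1 and 21.0 TPM with DMSO at 16 h. Every 48 h library lay above every 16 h library. The log2 fold change was 0.70 ± 0.17 with erinacine S (SE, adjusted p = 0.00901, limma) and 0.78 ± 0.17 with DMSO (adjusted p = 0.00478). Without erinacine S 48 h replicate 1 the value with erinacine S was 0.46 and still passed (adjusted p = 0.0115).

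Cacna2d1, a binding site of gabapentin and the most abundant alpha2delta gene, had 55.1, 74.9 and 66.5 TPM with erinacine S and 71.9, 78.6 and 55.1 TPM with DMSO at 48 h, against 60.4, 50.1 and 49.2 TPM with erinacine S and 55.1, 59.1 and 52.7 TPM with DMSO at 16 h. The times overlap in both treatments. Its log2 fold changes of 0.29 ± 0.14 and 0.28 ± 0.14 did not pass (SE, erinacine S and DMSO, adjusted p = 0.132 and 0.135, limma). The DMSO value passed without 48 h replicate 3 (0.43, adjusted p = 0.0337). Cacna2d2 lay between 16.4 and 37.1 TPM and was not called, with values of 0.40 ± 0.18 with erinacine S and 0.37 ± 0.18 with DMSO (SE). With erinacine S it was 0.16 without 48 h replicate 1 (adjusted p = 0.381) and was called without 48 h replicate 3 (0.57, adjusted p = 0.0311).

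None of the 4 calcium channel beta genes passed between the times (limma, 0 of 4 in each treatment), although they include the most abundant member. At an unadjusted p under 0.05 there were 1 of 4 with erinacine S (42.2% of all genes) and 0 of 4 with DMSO (44.2%). Cacnb3, a beta subunit of N-type and other neuronal channels, had 288, 313 and 305 TPM with erinacine S and 309, 289 and 305 TPM with DMSO at 48 h, against 324, 263 and 246 TPM with erinacine S and 265, 325 and 242 TPM with DMSO at 16 h. The 16 h libraries spread on both sides of the 48 h libraries. Its log2 fold change was 0.13 ± 0.11 in each treatment (SE), with a 95% confidence interval of -0.12 to 0.37. Cacnb3 made up 70.0% to 75.4% of the summed beta genes in every library.

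Cacnb1, the beta subunit of skeletal muscle that brain expresses as well, had 91.3, 87.1 and 84.2 TPM with erinacine S and 85.8, 80.2 and 92.6 TPM with DMSO at 48 h, against 84.6, 70.4 and 70.1 TPM with erinacine S and 73.1, 85.7 and 66.5 TPM with DMSO at 16 h. The groups overlap, and the log2 fold changes were 0.22 ± 0.10 with erinacine S and 0.20 ± 0.10 with DMSO (SE, adjusted p = 0.109 and 0.141, limma). Cacnb1 was called without 16 h replicate 1 with erinacine S (0.31, adjusted p = 0.0335) and without 16 h replicate 2 with DMSO (0.30, adjusted p = 0.0359). Cacnb4, mutated in the lethargic mouse, lay between 16.4 and 24.6 TPM and Cacnb2 between 4.42 and 7.31 TPM, with log2 fold changes between 0.04 and 0.14. Without erinacine S 48 h replicate 1 those with erinacine S were -0.03 for Cacnb4 and -0.11 for Cacnb2.

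Hcn2 had the second largest rise of the 27 genes. It encodes an HCN channel that is strongly gated by cyclic AMP. Hcn2 had 47.7, 37.3 and 42.1 TPM with erinacine S and 57.4, 45.1 and 47.7 TPM with DMSO at 48 h, against 20.8, 14.0 and 12.4 TPM with erinacine S and 15.6, 20.6 and 12.2 TPM with DMSO at 16 h. The lowest 48 h library, at 37.3 TPM, lay well above the highest 16 h library, at 20.8 TPM. Between the times the log2 fold change was 1.40 ± 0.20 with erinacine S (SE, adjusted p = 0.000477, limma) and 1.60 ± 0.20 with DMSO (adjusted p = 0.000182).

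Hcn3 and Hcn4 differed less between the times than Hcn2. Hcn4, the slow channel of the cardiac pacemaker that is also expressed in brain, had 37.8, 33.1 and 30.9 TPM with erinacine S and 31.7, 29.9 and 30.8 TPM with DMSO at 48 h, against 28.7, 25.4 and 25.4 TPM with erinacine S and 25.0, 28.7 and 24.0 TPM with DMSO at 16 h. No 48 h library lay below a 16 h library. It rose with erinacine S (0.34 ± 0.09, SE, adjusted p = 0.0162, limma), and the value with DMSO was 0.25 ± 0.09 (adjusted p = 0.0601, or 0.0272 without 16 h replicate 2). The call with erinacine S was lost without 48 h replicate 1 (adjusted p = 0.0541) and without 16 h replicate 2 or 3 (adjusted p = 0.0640 and 0.0588). Hcn3, which responds little to cyclic AMP, had 56.3, 45.8 and 43.9 TPM with erinacine S and 40.9, 41.2 and 42.5 TPM with DMSO at 48 h, against 43.6, 36.9 and 37.6 TPM with erinacine S and 36.5, 43.2 and 34.3 TPM with DMSO at 16 h. The times separate narrowly with erinacine S and overlap with DMSO. Its values of 0.30 ± 0.11 with erinacine S and 0.13 ± 0.11 with DMSO did not pass (SE, adjusted p = 0.0568 and 0.371, limma). The value with erinacine S was 0.19 without 48 h replicate 1 (adjusted p = 0.198), and it was called without 48 h replicate 3 (adjusted p = 0.0404) or 16 h replicate 1 (adjusted p = 0.0313).

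Hcn2 stood above Hcn4 in the makeup of the family at 48 h and below it at 16 h. Hcn2 made up 31.3% to 35.1% of the summed HCN genes with erinacine S and 37.6% to 42.9% with DMSO at 48 h, against 16.0% to 21.8% with erinacine S and 16.9% to 21.8% with DMSO at 16 h. Hcn4 took 25.7% to 27.8% with erinacine S and 23.7% to 24.9% with DMSO at 48 h, against 30.0% to 32.8% with erinacine S and 30.3% to 33.2% with DMSO at 16 h.

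**Figure D3:**
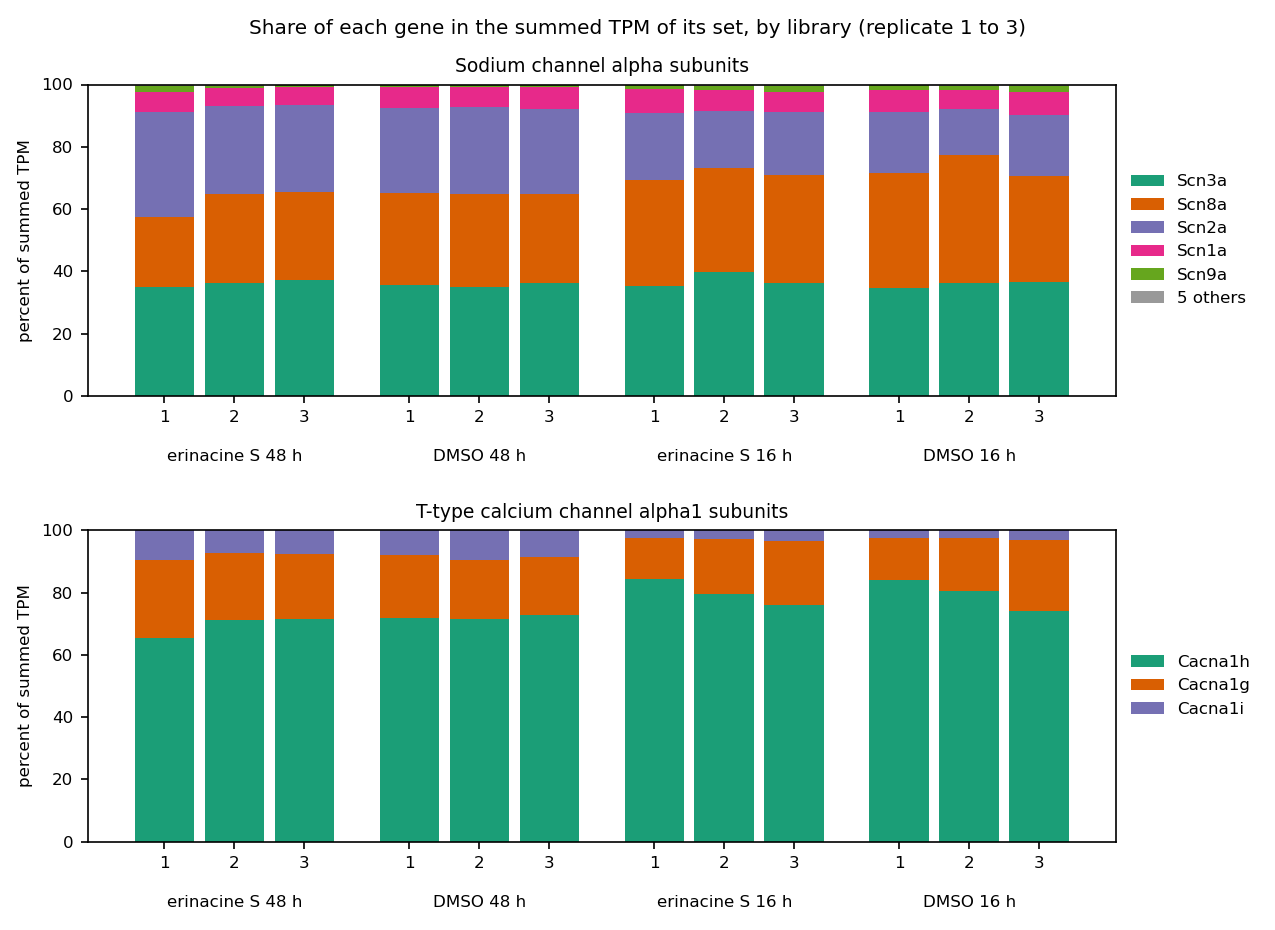
Share of each gene in the summed TPM of its set (percent) in each of the 12 libraries, for the sodium channel alpha and T-type calcium channel genes; each stacked bar is a library and adds to 100%. Scn2a and Cacna1i take larger shares in all 48 h libraries than in any 16 h library.

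The genes that rose under every alternative setting in both treatments were Scn2a, Cacna1i, Cacna2d3 and Hcn2. Their promoters are shown as the 250 bases upstream of the RefSeq start (GRCm38.p6), to set the sequence beside the change. RefSeq gives a pair of starts for Scn2a, and the upstream one is shown. Capitals mark matches on either strand to the GC box GGGCGG and the E-box CAGCTG. The stretch of Cacna1i lies at chr15:80286988-80287237 (plus strand), Cacna2d3 at chr14:29721865-29722114 (minus strand), Hcn2 at chr10:79716384-79716633 (plus strand) and Scn2a at chr2:65620519-65620768 (plus strand).
Cacna1i: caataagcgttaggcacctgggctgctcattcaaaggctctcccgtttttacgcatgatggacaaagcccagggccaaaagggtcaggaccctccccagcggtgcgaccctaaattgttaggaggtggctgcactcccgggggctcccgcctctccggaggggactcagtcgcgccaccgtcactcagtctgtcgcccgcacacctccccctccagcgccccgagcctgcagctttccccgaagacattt
Cacna2d3: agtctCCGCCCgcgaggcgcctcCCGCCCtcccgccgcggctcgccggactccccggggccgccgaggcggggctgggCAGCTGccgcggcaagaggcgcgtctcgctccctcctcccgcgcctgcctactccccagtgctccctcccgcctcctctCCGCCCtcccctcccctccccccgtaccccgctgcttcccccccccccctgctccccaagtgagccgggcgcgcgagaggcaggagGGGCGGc
Hcn2: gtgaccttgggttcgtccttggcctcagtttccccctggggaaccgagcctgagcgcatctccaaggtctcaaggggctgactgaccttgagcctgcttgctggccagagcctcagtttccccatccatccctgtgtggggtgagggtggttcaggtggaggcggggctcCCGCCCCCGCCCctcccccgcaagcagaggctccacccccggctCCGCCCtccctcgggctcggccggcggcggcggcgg
Scn2a: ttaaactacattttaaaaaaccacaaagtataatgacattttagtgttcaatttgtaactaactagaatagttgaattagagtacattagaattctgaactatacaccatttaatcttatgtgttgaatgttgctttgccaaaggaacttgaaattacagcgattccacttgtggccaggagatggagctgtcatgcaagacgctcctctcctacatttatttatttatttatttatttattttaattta

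The 4 stretches differ in base composition. The Cacna2d3 stretch is 80.0% G and C with 30 CpG dinucleotides and holds 4 GC boxes and an E-box, and that of Hcn2 is 70.4% G and C with 16 CpG and 3 GC boxes. The Cacna1i stretch is 62.4% G and C with 16 CpG and no match. The Scn2a stretch is 29.6% G and C with 2 CpG and no match, while the window of the other Scn2a start (chr2:65668436-65668685) is 53.2% G and C with 9 CpG and holds a TATAAA. The matches shown do not overlap each other. In the 4 windows printed there was no TATAAA, no cyclic AMP response element TGACGTCA and no RE1 element, the site of the repressor REST. The RE1 element was found in 0.055% of all promoters and TGACGTCA in 1.55%, so their absence from 4 windows decides nothing. Sequence outside the windows was not searched, so whether these genes have such a site elsewhere was not tested. A match describes letters, not a bound site.

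Promoters were found for 26 of the 36 genes, with 36 starts. A GC box was present at 15 of these 36 starts and in 32.7% of all 32851 promoters, an E-box at 9 and in 13.0%, TATAAA at 2 and in 12.4%, TGACGTCA at 0 and in 1.55%, and the RE1 element at 0 and in 0.055%. With TGACGTCA and the RE1 element this rare over all promoters, 0 matches at 36 starts cannot show that the channel genes lack them. The median share of G and C was 58.8% at the channel genes' starts and 52.4% over all promoters.

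Erinacine S against DMSO at 48 h changed none of the 27 channel genes by the test over all genes (limma, 0 called, where 0.134% of all genes were called). Over all genes 3 were higher and 18 lower, a count that depended on 1 library: without erinacine S 48 h replicate 1 it was 7 higher and 107 lower, with 0 of the 27 channel genes among them. At an unadjusted p under 0.05 there were 3 of 27, against 8.96% of all genes, and the smallest adjusted p was 0.499. The values leaned upward, with 22 of 27 positive and a median log2 fold change of 0.08 (0.01 over all genes). Libraries did not overlap for 4 genes, all higher with erinacine S (10.5% of all genes were higher without overlap and 8.74% lower). The 95% confidence intervals over the 27 genes reached from -0.67 to 1.03, so moderate changes of single genes are within what 3 libraries a group leave possible.

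The 3 genes with an unadjusted p under 0.05 were Scn3a, Cacna1d and Scn3b. Scn3a had 44.7, 36.7 and 32.4 TPM with erinacine S, against 31.2, 30.7 and 32.1 TPM with DMSO, a log2 fold change of 0.26 ± 0.10 (SE, adjusted p = 0.499, limma). Cacna1d had 13.8, 13.6 and 10.7 TPM with erinacine S, against 10.1, 10.3 and 9.91 TPM with DMSO, a log2 fold change of 0.29 ± 0.12 (adjusted p = 0.500, limma). In both, all erinacine S libraries lay above all DMSO libraries, the third of them narrowly. Scn3b had 154, 105 and 96.7 TPM with erinacine S, against 84.8, 92.1 and 101 TPM with DMSO, which overlap, and a log2 fold change of 0.33 ± 0.15 (adjusted p = 0.544, limma). Without erinacine S 48 h replicate 1 these values were 0.13 for Scn3a, 0.23 for Cacna1d and 0.13 for Scn3b. Scn2b (0.27 ± 0.13) and Hcn3 (0.22 ± 0.11) were the other genes without overlap, neither past the threshold (SE, adjusted p = 0.571 and 0.594, limma).

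The genes with the largest rises over time were not among these. Cacna1i had a log2 fold change of 0.04 ± 0.15 with erinacine S against DMSO at 48 h, with a 95% confidence interval of -0.28 to 0.36, and Hcn2 one of -0.24 ± 0.20, with an interval of -0.67 to 0.20 (SE). Cacnb2 had a value of -0.17 ± 0.16. Scn2a stood at 0.35 ± 0.18 and Cacna1g at 0.33 ± 0.16, both with overlapping libraries. All 5 sodium channel alpha genes and all 8 calcium channel alpha1 genes tested had positive values, with medians of 0.26 and 0.10, none of them called. Without erinacine S 48 h replicate 1, 4 of 5 and 3 of 8 were positive, with medians of 0.12 and -0.01. Scn2a was then 0.12, Cacna1g 0.18, Cacna1i -0.14 and Cacnb2 -0.36.

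The lean was largest in a single library. Of the 27 genes, 24 lay above the DMSO mean of 48 h in erinacine S replicate 1, 19 in replicate 2 and 10 in replicate 3. The median log2 differences from that mean were 0.39, 0.10 and -0.05, against 0.04, 0.0031 and -0.01 over all genes. Without replicate 1 the median log2 fold change of the 27 genes was -0.0032, with 13 positive and 0 called. In that library the summed markers of astrocytes, the oligodendrocyte lineage, microglia and dividing cells were the lowest of the 48 h libraries, by the values given above. Most of the neuron markers, though not Tubb3 and Neurod6, were the highest there. The part of these cell types, neurons included, in the result was not tested.

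**Figure D4:**
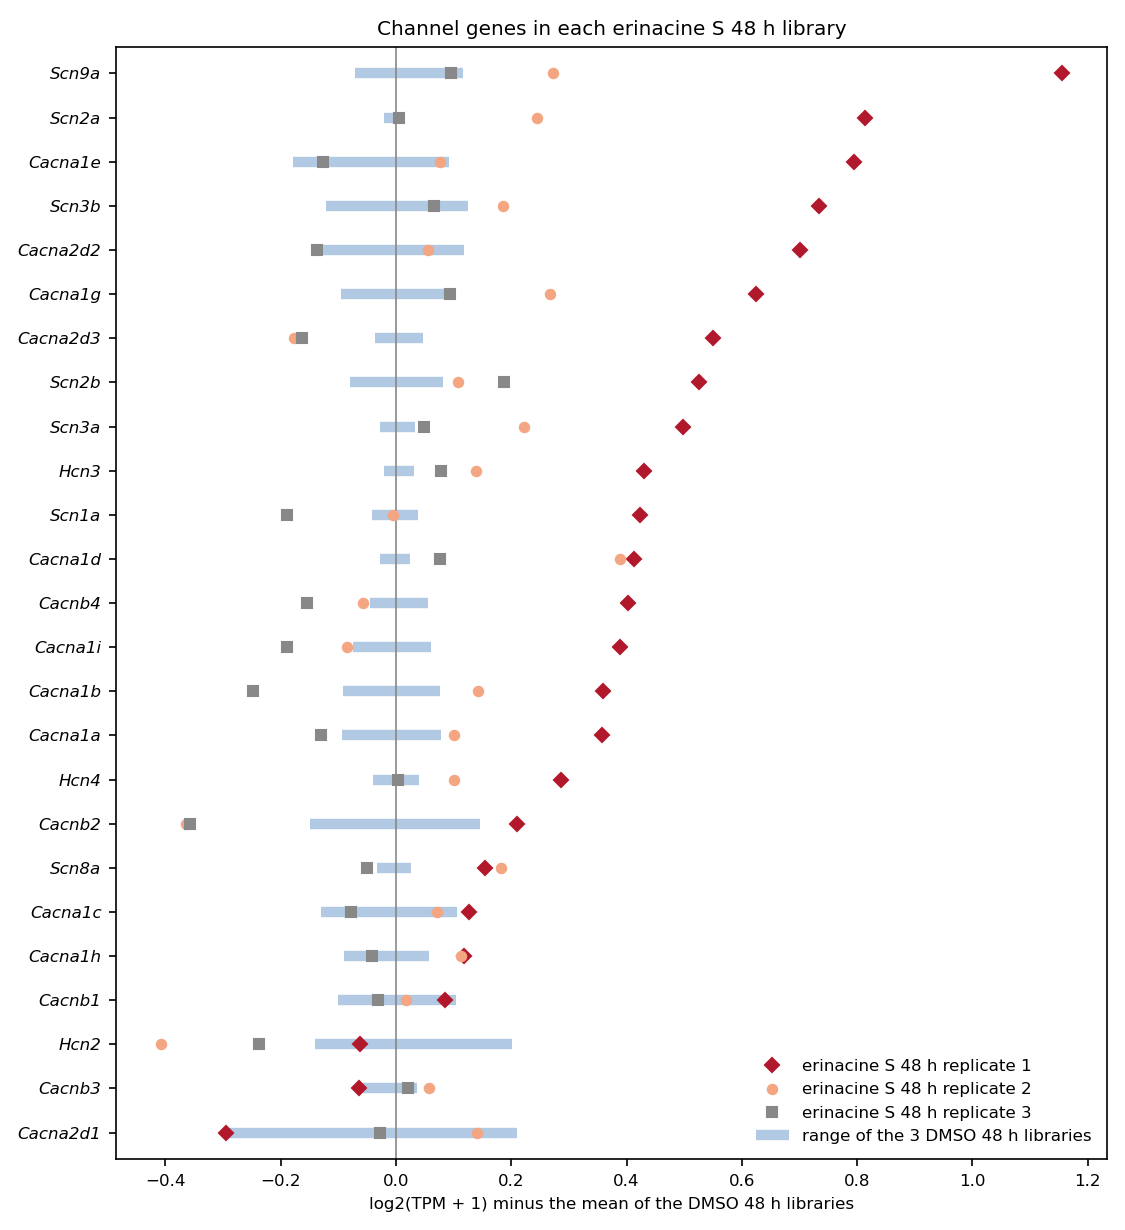
Log2 difference of most of the tested channel genes in each erinacine S library of 48 h from the mean of the 3 DMSO libraries of 48 h, on the log2(TPM + 1) scale, with the range of the DMSO libraries as a band. Replicate 1 lies right of 0 for most genes, and replicate 3 lies on both sides of 0.

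At 16 h erinacine S against DMSO called 0 of the 27 genes (limma, 0% of all genes called), and 0 had an unadjusted p under 0.05, against 1.29% of all genes. The log2 fold changes lay between -0.14 and 0.18, with a median of 0.02 (0.01 over all genes) and 18 of 27 positive. Without erinacine S 16 h replicate 1, or without DMSO 16 h replicate 3, 9 of 27 were positive, with a median of -0.02 in each case. The libraries overlapped for all 27 genes, where 4.19% of all genes had no overlap. The 95% confidence intervals reached from -0.51 to 0.57. Scn2a, for example, had 17.1, 13.7 and 17.1 TPM with erinacine S, against 16.6, 11.98 and 13.9 TPM with DMSO (0.17 ± 0.18, SE), and Cacnb3 had 324, 263 and 246 TPM with erinacine S, against 265, 325 and 242 TPM with DMSO (0.00 ± 0.11).

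The treatment effect was not shown to differ between the times for any channel gene. The interaction was called for 0 of 27 (limma, 0% of all genes called), with 0 at an unadjusted p under 0.05 against 2.77% of all genes. The smallest unadjusted p was 0.121, for Cacna1g, whose difference was 0.39 ± 0.23 (SE, adjusted p = 1.00, limma).

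Partners of these channels, from a list of 40 genes, were also called higher over time. Of the 37 tested, 17 rose with erinacine S and 13 with DMSO at 48 h against 16 h (15.1% and 16.1% of all genes), and 0 fell in either. Under the alternative settings 14 to 18 rose with erinacine S and 12 to 16 with DMSO. Up to 2 then fell with erinacine S and up to 1 with DMSO. Values were negative for 8 partners with erinacine S and 9 with DMSO. All 48 h libraries lay above all 16 h libraries for 18 partners in each treatment. Over all genes this was 21.2% with erinacine S and 24.1% with DMSO. All 48 h libraries lay below all 16 h libraries for 3 with erinacine S (Unc79, Cachd1 and Gem) and for 2 with DMSO (Cabp1 and Rest). Of the 15623 genes tested, 3700 with erinacine S and 4121 with DMSO had this lower pattern. Snap25 is also a neuron marker above. The 13 were all among the 17. They include Cntn1, an adhesion molecule that binds sodium channel complexes (1.72 ± 0.17 with erinacine S and 1.71 ± 0.17 with DMSO, SE), and Sptbn4, the spectrin that anchors sodium channels at the axon initial segment (1.16 ± 0.13 and 0.97 ± 0.13). The adjusted p values of Cntn1 were 5.79e-05 with erinacine S and 4.94e-05 with DMSO, and those of Sptbn4 0.000111 and 0.000278 (limma). Pex5l, the HCN trafficking subunit also named TRIP8b, rose by 1.00 ± 0.12 with erinacine S and by 1.14 ± 0.12 with DMSO (SE, log2). Fgf12, which binds the sodium channel tail, rose by 1.05 ± 0.18 and 0.95 ± 0.18, and Rims1, which tethers calcium channels at the release site, by 0.81 ± 0.18 and 0.89 ± 0.18 (SE, log2).

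With erinacine S against DMSO at 48 h, none of these 37 partners was called (limma, 0 called, where 0.134% of all genes were, and 5 at an unadjusted p under 0.05, where 8.96% of all genes were). The 3 with the smallest p were Cacng7, a relative of the calcium channel gamma subunits that regulates AMPA receptors, at 0.24 ± 0.06, Rem2, a small GTPase that restrains calcium channels, at -0.70 ± 0.20, and Cacng5 at -0.71 ± 0.22 (SE, adjusted p = 0.224, 0.278 and 0.332, limma). Each had libraries without overlap. Among the 37 partners this held for 7 higher with erinacine S and 4 lower (10.5% and 8.74% of all genes). Rem2 was called lower without erinacine S 48 h replicate 1 (-0.96, adjusted p = 0.0166), the single partner called under an alternative setting at 48 h.

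Neighbouring genes on the chromosomes could differ widely in level and change. On chromosome 2, 5 sodium channel alpha genes lie within 1.33 Mb (chr2:65457118-66784914, GRCm38, in the order Scn3a, Scn2a, Scn1a, Scn9a, Scn7a). Scn2a, at chr2:65620771-65767447, rose in both treatments, while its neighbour Scn3a, 53.1 kb away on the other strand, rose with erinacine S and Scn1a, 503 kb away, in neither. Scn2b and Scn4b lie 8.3 kb apart on chromosome 9 (chr9:45117782-45130070 and chr9:45138395-45154152), Scn2b at 4.70 to 11.5 TPM and Scn4b under 1 TPM throughout. Cacna1c, at 21.0 to 36.3 TPM, and Cacna2d4, under 1 TPM, are 40.1 kb apart on chromosome 6. Exons of 9 tested genes overlap a gene on the opposite strand, and in 1 case that gene reached 1 TPM (Gm11629 at 2.64 TPM, sharing 80 bases with Cacnb1).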

How the data were processed

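The 12 libraries were made from total RNA with a strand-specific kit, per the labels' protocols. The authors deposited TPM per gene. HISAT2, SAMtools, StringTie 2.1.3 and, for read preparation, bcl2fastq 2.20, FastQC and Trimmomatic 0.36 are named per the submitters' processing notes, with the build GRCm38.p5. Annotation release, strand setting and handling of reads that match several genes: not given in the sources used here. In place of 0 the table has 0.0001 (between 24194 and 28825 genes a library). TPM hold no depth, so counting precision is unknown and errors are the spread between libraries.

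Groups and replicate numbers come from the sample titles. The test was limma 3.58.1 (R 4.3.3; lmFit, contrasts.fit and trended eBayes) on log2(TPM + 1). It covered 15623 genes, those whose TPM averaged 1 or more. A single fit with 1 mean per group covered all 12 libraries. P-values are two-sided and were adjusted by the Benjamini-Hochberg method across all these genes, with a threshold of 0.05. Fold changes are on the log2(TPM + 1) scale, which understates those of low genes. The fit was also run on simulated data in which libraries varied independently. That setting has no library that stands apart and no pairing, so it does not show how the fit handles these. Promoters, with 250 bases upstream, are from RefSeq (GRCm38.p6), matched by symbol. Of the 36 genes, 36 have the same symbol and 33 the same coordinates in GENCODE M21. The row of Scn4a covers part of that gene.

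The members and lists were chosen with earlier results of these data known. Values per library are given for genes called in any comparison, genes with an unadjusted p under 0.05 in a treatment comparison or the interaction, and the 2 genes of highest mean TPM per family. Some genes that these rules cover are not reported here. Partner genes called, or else the 3 with the smallest p, could be named. At 16 h, erinacine S and DMSO libraries of the same number deviated together from their group means. Their correlations across genes were 0.480, 0.185 and 0.510, each over 0.1. Erinacine S replicate 2 and DMSO replicate 3 also passed 0.1 at 16 h (0.109), so the numbers may pair the libraries there, which is not settled. The main fit used no pairing. At 48 h libraries of the same number correlated at -0.02, 0.107 and -0.192, which shows no clear pairing. Alternatives changed the pseudocount (0.1 or 5), the filter (none, or an average of 5 TPM), the scaling (median ratios), the libraries in the fit (those compared, or 1 left out in turn) and added the replicate number as a block, also within each time.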

Additional observations from a re-analysis of the deposited data

How the results depend on the processing

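Counts of channel genes called were 0 for erinacine S against DMSO at 48 h, for the same at 16 h and for the interaction under every alternative run. The rise with time kept its direction, and its count varied. With DMSO, 48 h against 16 h called 7 of 27 genes, 11 with median-ratio scaling, and 12 with only the libraries compared (11 higher and Scn9a lower); the cause was not tested. It was 10 with the replicate block, 8 with a pseudocount of 0.1 (Scn9a lower again), 6 without a filter, and 5 to 10 with 1 library left out. With erinacine S the count was 13, against 15 with the replicate block, 15 with median-ratio scaling, 9 with only the libraries compared, 10 without a filter, and 6 to 17 with 1 library left out. The replicate block left the treatment counts at 0, and so did a block within each time. No fold change of a single gene past the threshold changed sign. Of the values of single genes, 32 lost and 13 gained a call across the alternatives for erinacine S over time, and 7 lost and 23 gained one for DMSO over time. With 3 libraries a group and unknown depth, small changes of genes near 1 TPM, and of single genes between the treatments, may have been missed. Whether Scn9a was called with DMSO over time depended on the setting.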

Other observations

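Further partners of the channels rose at 48 h against 16 h in both treatments. Among the calmodulin genes, whose protein is the calcium sensor bound to the tails of sodium and calcium channels, Calm3 had a log2 fold change of 0.72 ± 0.07 with erinacine S and 0.68 ± 0.07 with DMSO (SE, n = 3 each; both past the threshold of adjusted p under 0.05, limma). Stac, an adaptor of L-type channels, rose by 0.74 ± 0.16 with erinacine S and 0.85 ± 0.16 with DMSO (SE, log2). Rbfox1, a splicing factor with calcium channel transcripts among its targets, rose by 0.61 ± 0.10 with erinacine S and 0.73 ± 0.10 with DMSO (SE, log2). Of the gamma subunit relatives, Cacng8 rose by 0.90 ± 0.12 with erinacine S and 0.71 ± 0.12 with DMSO, and Cacng2 and Cacng4 rose by 0.29 to 0.42 across the treatments. Ank2, Cacng7, Fgf14 and Unc80, a subunit of the sodium leak channel complex, passed with erinacine S and not with DMSO, a difference that was not called in the interaction.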
